A study of Rattus norvegicus with 10 samples.

Results

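Osmolyte transporter genes and other genes linked to the tonicity factor NFAT5 were examined in the neurointermediate lobe of the rat pituitary. The 7 named genes were Nfat5, Akr1b1, Slc5a3, Slc6a6, Slc6a8, Slc6a12 and Slc38a2. They were chosen by name, and a probe set was taken where the platform annotation gave exactly 1 gene symbol equal to a named gene. In all, 11 probe sets of 6 genes were found, among 20826 probe sets with 1 symbol that stood for 14217 genes. No probe set named for Slc6a12, the betaine transporter, was found, and that gene was not analysed here. Of the 11 probe sets, 10 were among the brightest 60% that were kept for testing.

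The arrays, Affymetrix Rat Genome 230 version 2.0, compared 5 pools from male Sprague Dawley rats dehydrated for 3 days with 5 pools from control rats, all aged 10 to 12 weeks. RNA of 5 animals was pooled for each array, so p-values measure the spread between pools, not between animals. The sample labels and the title name the neurointermediate lobe, while the design text names the supraoptic nucleus; the labels were followed. The labels name no allele, transgene or drug in either group, and do not say how the animals were dehydrated.

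NFAT5, also called TonEBP, is a transcription factor of the Rel family that moves to the nucleus when the medium becomes hypertonic. It binds a DNA element named TonE near genes whose products raise the cell content of small organic osmolytes, which balance external salt without disturbing proteins as inorganic ions do. Sorbitol is made by aldose reductase, while myo-inositol, taurine, betaine and neutral amino acids are taken up by sodium-coupled transporters. The neural lobe lies outside the blood-brain barrier, and its pituicytes, the glia around the hormone-releasing axon endings, are known for their taurine content.

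The median signal of an array was 35.7 to 39.6. Defining genes of the labelled tissue were present. All 10 arrays had signal for Avp, Oxt, Pomc and Drd2. The pituicyte and melanotroph lists kept 14 of 17 and 6 of 8 genes after the filter, beside 10593 of 14217 genes over the whole array. Of those listed genes, 16 and 6 had a probe set. These counts alone therefore do not mark the tissue. Anterior lobe genes were also present, with a summed signal of 4824 to 9379 after dehydration and 2574 to 7950 in controls (6 of 8 kept). The log2 ratio of 3' to 5' probe sets for GAPDH and beta-actin, here called the transcript-end ratio and higher where RNA is shorter, was 1.61 to 2.67 on dehydrated arrays and 1.26 to 2.52 on controls (exact two-sided permutation p = 0.214 for the group difference). It was lowest on dehydrated 5 and highest on control 1 within their groups. Without these 2 arrays it was 2.05 to 2.67 on dehydrated arrays and 1.26 to 1.91 on controls, with no overlap. In fits that leave out both, dehydration and this ratio therefore cannot be told apart.

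Start-site windows from RefSeq, 250 bases before to 50 after an annotated start on assembly GRCr8, are shown first for the genes on which the results turn. Slc5a3 and its neighbour Mrps6, which encodes a protein of the small mitochondrial ribosomal subunit, are shown because both were higher after dehydration. By the RefSeq gene table Slc5a3 lies entirely within Mrps6, on the same strand. Slc6a6 is shown because its window holds the TonE letters. Windows were found for 5 of the 7 named genes. They were searched on both strands for TGGAAA and for TonE, by its usual consensus, which begins with TGGAAA, so that every TonE match is also a TGGAAA match. Capitals mark a match of either, and the windows are at chr11:44799537-44799836 on the plus strand for Slc5a3, at chr11:44778417-44778716 on the plus strand for Mrps6 and at chr4:125752252-125752551 on the plus strand for Slc6a6.
Slc5a3: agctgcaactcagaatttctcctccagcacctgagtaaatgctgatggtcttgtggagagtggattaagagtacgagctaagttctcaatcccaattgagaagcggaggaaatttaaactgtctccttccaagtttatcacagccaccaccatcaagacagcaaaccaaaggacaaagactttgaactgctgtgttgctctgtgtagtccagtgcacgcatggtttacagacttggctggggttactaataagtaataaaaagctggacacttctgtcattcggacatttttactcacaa
Mrps6: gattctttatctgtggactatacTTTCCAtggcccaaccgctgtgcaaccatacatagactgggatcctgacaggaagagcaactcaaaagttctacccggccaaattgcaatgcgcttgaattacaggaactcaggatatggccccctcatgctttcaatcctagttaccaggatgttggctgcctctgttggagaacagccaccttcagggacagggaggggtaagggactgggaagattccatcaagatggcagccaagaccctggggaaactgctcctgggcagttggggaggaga
Slc6a6: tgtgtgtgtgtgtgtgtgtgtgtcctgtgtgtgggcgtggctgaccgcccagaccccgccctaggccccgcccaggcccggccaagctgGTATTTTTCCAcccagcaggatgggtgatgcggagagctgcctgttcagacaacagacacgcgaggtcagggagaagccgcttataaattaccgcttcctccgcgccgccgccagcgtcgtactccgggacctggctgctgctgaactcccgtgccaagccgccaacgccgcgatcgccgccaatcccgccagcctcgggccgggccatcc
The Slc6a6 window had 1 TonE match on the opposite strand, 161 to 151 bases before the start. The Mrps6 window had 1 TGGAAA match on the opposite strand, 227 to 222 bases before the start, and no TonE match. The windows of Slc5a3, Slc6a8, Slc6a12 and Slc38a2 had neither. Of all 33469 windows of this length, 22.7% held TGGAAA and 5.98% held TonE. A match is a run of letters and no measure of binding. Sequence outside these windows was not searched, so a window without a match does not show that a gene lacks the element.

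Setting dehydrated against control lobes asks whether transcripts of this osmolyte pathway differed after dehydration. Slc5a3, which encodes the sodium-coupled myo-inositol transporter, was the only named gene with a probe set that passed, and it rose 1.55-fold. Nfat5 and Akr1b1 had changes near 0 on both of their probe sets. The probe set 1368778_at of Slc6a6, the taurine transporter gene, was lower after dehydration but did not pass. Thus 1 of the 10 tested probe sets was higher and none was lower at a limma adjusted p under 0.05. Among all 18625 tested probe sets 2.46% passed, 1.68% higher and 0.784% lower. At an unadjusted p under 0.05, 2 of the 10 passed, 1 in each direction, beside 17.4% of all tested probe sets, so that their share was near the background. The groups overlapped on all 10, where 4.59% of all tested probe sets had no overlap. In this bulk tissue, a change in the number of cells of a type and a change in RNA per cell cannot be told apart.

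**Figure D1:**
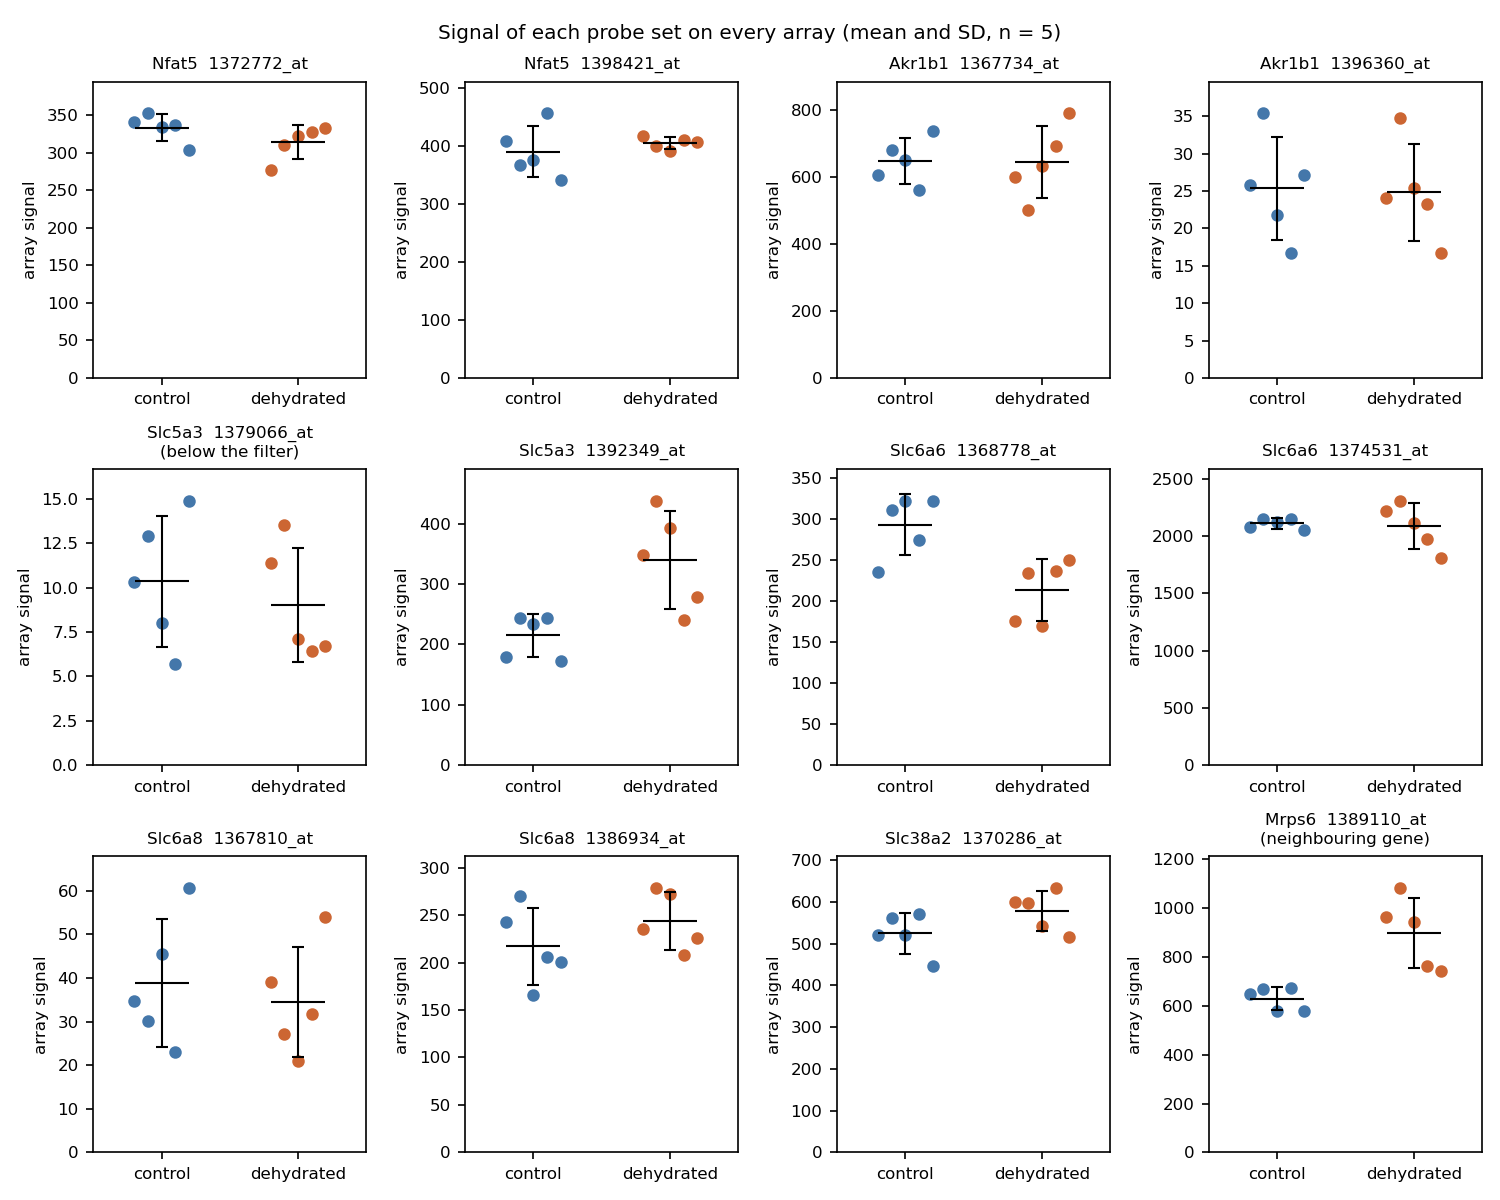
Array signal (linear scale, vertical axes from 0) of the 11 probe sets of the 6 measured genes and of Mrps6, with 1 point per array, the mean as a horizontal line and the SD as bars (n = 5 a group). Mrps6 separates the groups without overlap, and Slc5a3 1392349_at has 3 dehydrated arrays above every other array.

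The 2 probe sets of Nfat5, the gene of the transcription factor itself, gave signals within one band in both groups. On 1398421_at the dehydrated arrays read 417.5, 399.8, 390.4, 410.4 and 405.9, and the control arrays 407.8, 367.1, 375.2, 455.9 and 341.5. The dehydrated arrays lay inside the control range. The log2 change was 0.06 ± 0.08 SE (95% confidence interval -0.11 to 0.23, limma adjusted p = 0.739). On 1372772_at the dehydrated arrays read 276.5, 310.0, 322.0, 328.4 and 333.1, and the control arrays 340.8, 352.8, 334.5, 336.5 and 304.3. Here 4 of 5 control arrays lay above all dehydrated arrays, and the log2 change was -0.09 ± 0.07 SE (95% confidence interval -0.25 to 0.07, adjusted p = 0.584). The signs of the 2 probe sets differed, and the difference of -0.15 between their changes did not pass (exact two-sided permutation p = 0.119, 0.298 adjusted over 5 comparisons added after the values were seen). The intervals reach no further than 0.25 on the log2 scale in either direction. These values are of transcript, and the nuclear entry of the protein is not read by an array.

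Akr1b1 encodes aldose reductase, which reduces glucose to sorbitol. Its probe set 1367734_at read 599.3, 501.7, 633.5, 694.1 and 790.6 on the dehydrated arrays and 605.5, 680.0, 652.0, 560.7 and 738.8 on the control arrays. Both the lowest and the highest array were dehydrated. The log2 change was -0.02 ± 0.11 SE (95% confidence interval -0.24 to 0.21, limma adjusted p = 0.955). The dimmer 1396360_at had signals of 16.7 to 34.7 after dehydration and 16.7 to 35.4 in controls (log2 change -0.02 ± 0.20 SE, adjusted p = 0.972). On 1367734_at the array order within the groups ran against the transcript-end ratio (r = -0.82 over 10 arrays with group means removed, given as a description). Adjusted for that ratio, the log2 change was 0.12 (adjusted p = 0.589).

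Slc5a3 was higher on 1392349_at, with signals of 348.7, 438.6, 392.4, 240.4 and 278.8 on the dehydrated arrays. The control arrays read 178.8, 244.6, 234.3, 243.9 and 172.9. Dehydrated 1, 2 and 3 lay well above all controls and dehydrated 5 above them, while dehydrated 4 lay among the 3 highest controls. Dehydrated arrays averaged 340 ± 80.9 and controls 215 ± 35.9 (SD, n = 5), a log2 change of 0.63 ± 0.15 SE (95% confidence interval 0.32 to 0.95, limma adjusted p = 0.0319). Its SD was larger in the dehydrated group, which held both arrays near the control level and arrays far above it. Leaving out dehydrated 1, 2 or 3, or control 1, 3 or 5, took away the call (adjusted p from 0.0533 to 0.110), as did adjusting for the transcript-end ratio (log2 change 0.55, adjusted p = 0.0912), a fit without the filter on dim probe sets (0.0728) or one without an intensity trend in the variance (0.0990); without dehydrated 5 and control 1 together it held (adjusted p = 0.0245). In the fit without dehydrated 5 and control 1 the transcript-end ratio did not overlap between the groups. The change of Slc5a3 was positive under all 22 alternatives, between 0.53 and 0.75 when 1 array was left out.

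The other Slc5a3 probe set, 1379066_at, fell below the filter. Its signals were 6.4 to 13.5 after dehydration and 5.7 to 14.9 in controls, close to the pseudocount of 5 added before taking logs. In a fit over all 31042 probe sets its log2 change was -0.13 ± 0.24 SE (95% confidence interval -0.63 to 0.38, limma adjusted p = 0.881), and in that fit 1.03% of probe sets passed. The rise of Slc5a3 therefore rests on 1 probe set.

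Mrps6, the gene around Slc5a3, rose with its probe set 1389110_at. The dehydrated arrays read 961.8, 1082.4, 941.4, 762.9 and 743.9, and the control arrays 647.0, 667.7, 576.8, 673.2 and 580.1. The lowest dehydrated array was above the highest control array. The log2 change was 0.50 ± 0.10 SE (limma adjusted p = 0.0109), and it passed in each of the 10 fits without 1 array (adjusted p up to 0.0431) and after adjusting for the transcript-end ratio (log2 change 0.39, adjusted p = 0.0255), but not without an intensity trend in the variance (adjusted p = 0.0582). Dehydrated 1, 2 and 3 were the 3 highest arrays for both genes. With group means removed the 2 genes had r = 0.79 over the 10 arrays, which placed Mrps6 at rank 89 of 10592 genes by likeness to Slc5a3, and Mrps6 itself had r = 0.72 with the transcript-end ratio, against 0.32 for Slc5a3. The change of Slc5a3 exceeded that of Mrps6 by 0.13 on the log2 scale, within the spread (exact two-sided permutation p = 0.278, 0.463 adjusted over 5 comparisons, a comparison added after the values were seen). Whether the 2 probe sets read separate transcripts of this locus was not tested.

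**Figure D2:**
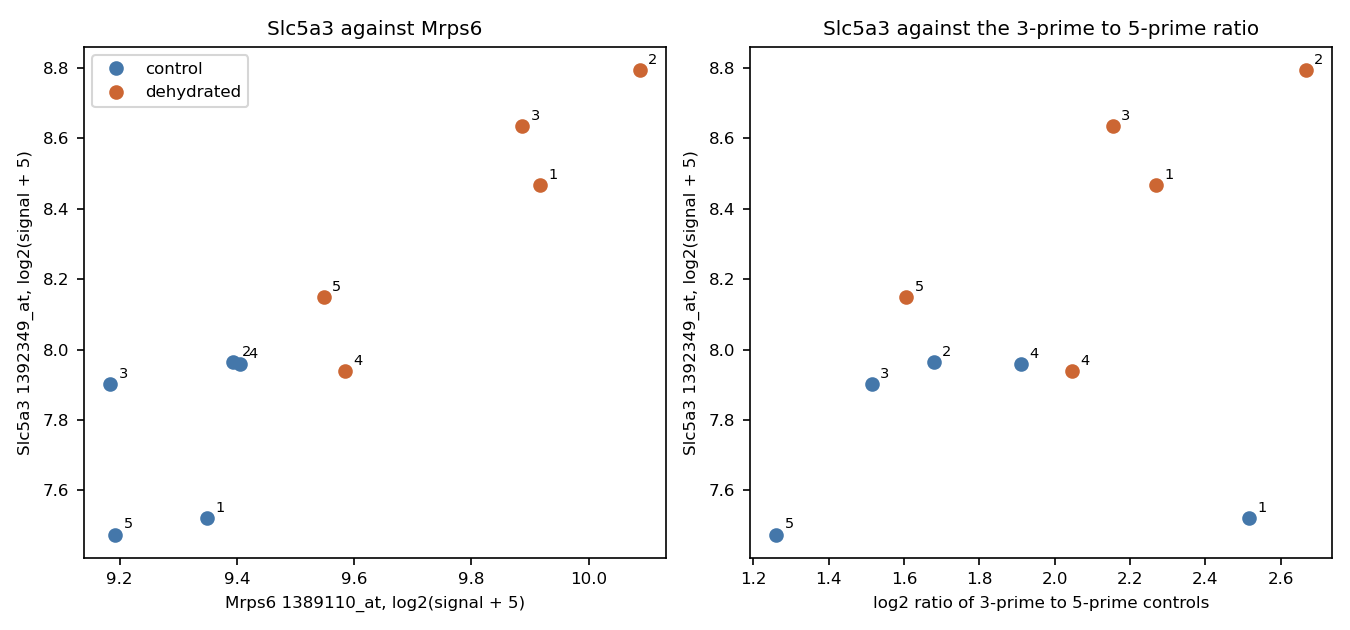
Log2(signal + 5) of Slc5a3 1392349_at against that of Mrps6 (left) and against the transcript-end ratio (log2) (right), with 1 point per array and the array number beside it. Dehydrated 1, 2 and 3 lie highest for both genes; control 1 has a ratio of 2.52 and a low Slc5a3 value.

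The genes whose array-to-array pattern was most like that of Slc5a3, by Pearson correlation over 10 arrays after group means were removed, were Brd8 (r = 0.98), Dram1 (0.96), Riok3 (0.94), Cdca7 (0.93) and Tmem263 (0.91), out of 10592 genes. Of these 5, Cdca7, a cell-cycle associated gene, had a log2 increase of 0.57 (limma adjusted p = 0.0119), while Brd8 and Dram1 had changes of 0.41 and 0.42 that did not pass (adjusted p = 0.0546 and 0.0724). Brd8 passed under 7 of 22 alternatives, among them leaving out dehydrated 4 (0.0323), dehydrated 5 (0.0197) or both dehydrated 5 and control 1 (0.0329). Dram1 passed under 4, among them leaving out dehydrated 4 (0.0440) or dehydrated 5 (0.0469). Riok3 and Tmem263 had changes of 0.14 and 0.10 (adjusted p = 0.445 and 0.532). Among the other named genes the r with Slc5a3 ranged from 0.76 for Slc6a6 1374531_at to -0.68 for Akr1b1 1367734_at. These genes were picked for the correlation, so it has no p-value.

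Slc6a6 encodes the taurine transporter, and its 2 probe sets read differently. On 1368778_at the dehydrated arrays read 175.4, 233.5, 168.9, 236.7 and 249.7, and the control arrays 235.6, 310.5, 321.3, 274.2 and 322.1. All controls except control 1 lay above every dehydrated array. The means were 213 ± 37.7 and 293 ± 37.4 in the dehydrated and control groups (SD, n = 5), a log2 change of -0.46 ± 0.12 SE (95% confidence interval -0.71 to -0.20). This did not pass over all probe sets (limma adjusted p = 0.0568). It passed without control 1 (adjusted p = 0.0312), without dehydrated 5 (0.0192), without both (log2 change -0.59, 0.00762) and among the brightest 40% of probe sets (0.0449). Without both, the transcript-end ratio did not overlap between the groups. Adjusted for the transcript-end ratio, the log2 change was -0.35 (adjusted p = 0.169), and its r with the ratio was -0.58 over 10 arrays with group means removed.

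On the brighter 1374531_at of Slc6a6 the dehydrated arrays read 2222.1, 2309.3, 2113.3, 1974.8 and 1809.0, and the control arrays 2078.2, 2147.5, 2124.0, 2146.8 and 2048.2. The controls lay in a narrow band inside the dehydrated range. The log2 change was -0.02 ± 0.07 SE (95% confidence interval -0.17 to 0.13, limma adjusted p = 0.915). Its r with the transcript-end ratio was 0.60, opposite in sign to that of 1368778_at. Within arrays, 1368778_at changed by -0.44 relative to 1374531_at on the log2 scale (exact two-sided permutation p = 0.0476, 0.238 adjusted over 5 comparisons added after the values were seen).

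**Figure D3:**
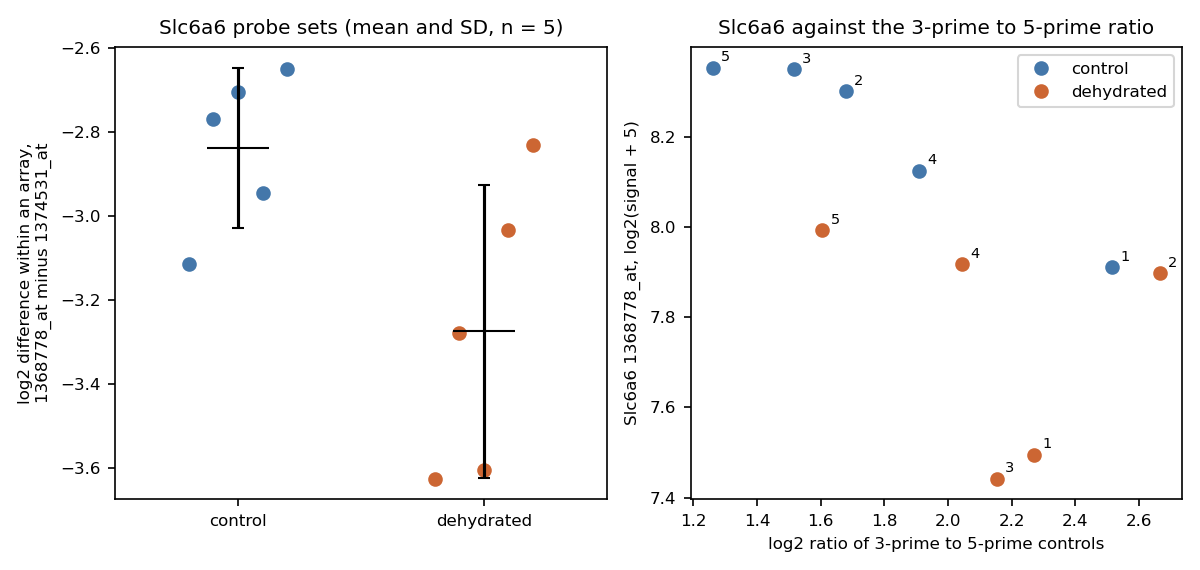
Left, log2 difference within each array between the 2 Slc6a6 probe sets, with mean and SD (n = 5 a group), of which only the group difference is read, -0.44; right, log2(signal + 5) of 1368778_at against the transcript-end ratio (log2), with array numbers. Control 1, with the highest ratio of its group, has the lowest control value.

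Slc6a8 encodes the creatine transporter. On 1386934_at the dehydrated arrays read 234.9, 278.8, 272.0, 207.6 and 226.4, and the control arrays 243.1, 270.6, 166.1, 205.9 and 200.2. The groups overlapped over most of their range, with a log2 change of 0.17 ± 0.12 SE (95% confidence interval -0.08 to 0.43, limma adjusted p = 0.483). The dimmer 1367810_at had signals of 20.9 to 53.9 after dehydration and 23.1 to 60.7 in controls (log2 change -0.14 ± 0.24 SE, adjusted p = 0.809).

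Slc38a2 encodes SNAT2, a sodium-coupled transporter of neutral amino acids that hypertonicity and amino acid shortage are both known to induce. The dehydrated arrays of 1370286_at read 600.1, 597.2, 542.0, 634.0 and 515.6, and the control arrays 521.8, 562.5, 521.7, 570.5 and 446.9. Dehydrated 1, 2 and 4 lay above all controls, and dehydrated 3 and 5 lay within their range. The log2 change was 0.14 ± 0.08 SE (95% confidence interval -0.03 to 0.31, limma adjusted p = 0.405).

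**Figure D4:**
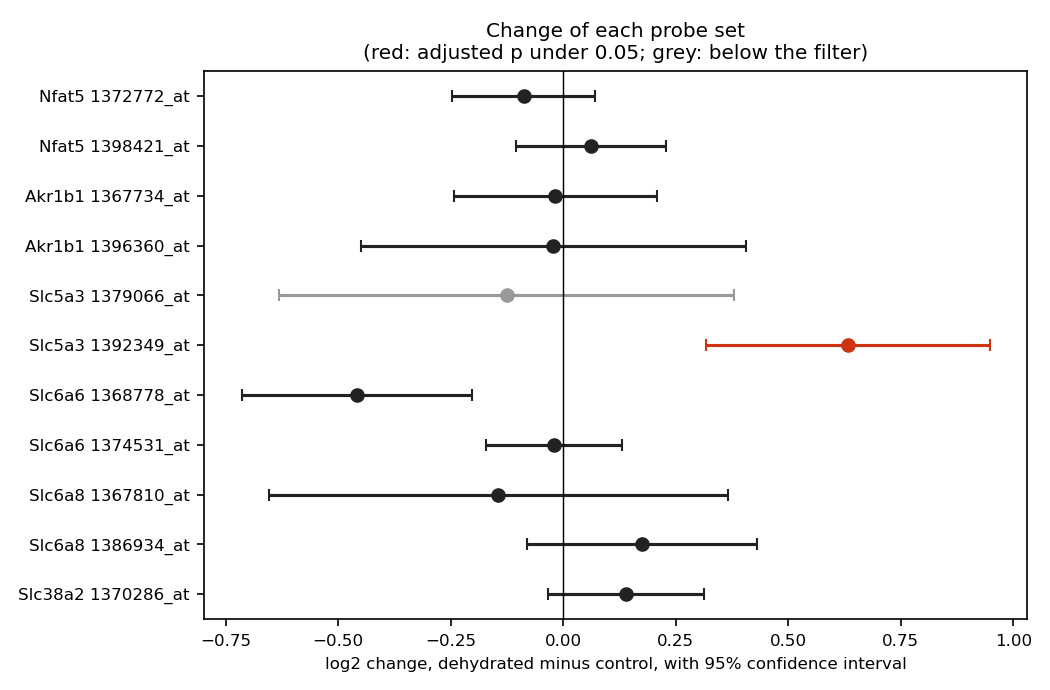
Log2 change, dehydrated minus control, of each probe set of the 6 measured genes, with its 95% confidence interval from the limma fit. The interval of Slc5a3 1392349_at lies above 0 (0.32 to 0.95) and that of Slc6a6 1368778_at below 0 (-0.71 to -0.20); all other intervals include 0.

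Whether Slc5a3 changed differently from the other genes was tested on the within-array log2 difference, with 1 probe set a gene and exact two-sided permutation tests. These tests were chosen with earlier results of these data known, and all 5 pairs shared the Slc5a3 values. Their p-values are therefore no independent support for the rise of Slc5a3. Against Slc6a6 1374531_at, Slc5a3 rose by 0.65 more, with no overlap between the groups (exact permutation p = 0.00794, the smallest this design allows; 0.0397 adjusted over 5 pairs). Against Nfat5, Slc38a2 and Slc6a8 the differences were 0.57, 0.49 and 0.46 (exact p = 0.0317, 0.0397 and 0.0397; each 0.0496 adjusted over the 5 pairs). Against Akr1b1 the difference of 0.65 did not pass (exact permutation p = 0.0873). The calls against Nfat5, Slc38a2 and Slc6a8 lay just under the threshold and ended with quantile normalization (adjusted exact p from 0.0529 to 0.0595). Without 1 array, those against Nfat5 and Slc38a2 passed only when dehydrated 4 was left out, and that against Slc6a8 only when dehydrated 4 or control 3 was (adjusted exact p up to 0.0992). That against Slc6a6 ended without control 1, 2, 4 or 5 (adjusted exact p = 0.0794).

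Other genes of the pathway were described by 9 lists and by Mrps6, with 1 probe set a gene. Together they held 91 tested genes, of which 6 rose and 1 fell. Among all 10593 genes 3.19% passed, 2.31% higher and 0.878% lower. Their median log2 change was 0.01, as it was over all genes. The lists were chosen with earlier results of these data known, and the share is no evidence about the pathway.

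Of 17 tested genes of the hypertonic response outside osmolyte uptake, 3 rose and none fell, with a median log2 change of 0.19. Among all genes 2.31% were called higher, and this list too was chosen with earlier results of these data known. Hspb1, a small heat shock protein, averaged 299 ± 18.9 in controls and 473 ± 52.8 after dehydration (SD, n = 5), which is a log2 change of 0.65 ± 0.09 SE (limma adjusted p = 0.000442). Slc12a2, the sodium-potassium-chloride cotransporter that loads shrunken cells with salt, averaged 866 ± 72.4 in controls and 1260 ± 98.1 after dehydration (SD, n = 5; log2 change 0.54 ± 0.08 SE, adjusted p = 0.000785). Sgk1, a kinase induced by both hypertonicity and glucocorticoids, read 286.1 to 323.6 in controls and 327.9 to 537.9 after dehydration (log2 change 0.54 ± 0.11 SE, adjusted p = 0.0132), a call that ended without an intensity trend (adjusted p = 0.0583). For these 3 genes no dehydrated array overlapped a control array, as was so for 4.59% of all tested probe sets. Hspa4l, a chaperone known as an osmotic stress protein, had a change of -0.34 (adjusted p = 0.151), and Lrrc8a, a subunit of the volume-regulated anion channel through which taurine leaves swollen cells, one of 0.23 (adjusted p = 0.186).

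None of 17 tested activators and partners of NFAT5 passed (median log2 change 0.03). Closest was the phospholipase gene Plcg1 at 0.36 ± 0.09 SE (limma adjusted p = 0.0518), which passed under 9 of 22 alternatives, among them leaving out dehydrated 4 (0.0365), control 1 (0.0398) or both dehydrated 5 and control 1 (0.0294). Mapk14, the p38 kinase, had a change of 0.01 (adjusted p = 0.960). None of the 4 other NFAT genes passed either (smallest p for Nfatc2, log2 change 0.21, adjusted p = 0.296).

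Genes that make or break down the osmolytes mostly did not pass. Of 9 tested genes of polyol and inositol metabolism none did: Isyna1, which makes inositol phosphate from glucose phosphate, had a log2 change of 0.14 (limma adjusted p = 0.618), the inositol monophosphatase Impa1 0.12 (adjusted p = 0.473) and sorbitol dehydrogenase Sord -0.17 (adjusted p = 0.343). Of 7 genes of taurine and creatine synthesis and use, Gadl1, an acidic amino acid decarboxylase, fell by 0.80 on the log2 scale, from 61.2 ± 16.2 to 33.2 ± 10.3 (SD, n = 5, adjusted p = 0.0396). Its groups overlapped, and the call ended under 10 alternatives, among them leaving out any dehydrated array but 5 or any control but 1 and 3 (adjusted p as high as 0.123). Csad, which forms the taurine precursor, had a change of -0.04 (adjusted p = 0.886). None of 6 betaine and choline genes passed (smallest p for Chdh, the choline dehydrogenase, -0.35, adjusted p = 0.189).

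Among transporters related to the named genes, none of 4 tested genes of the Slc6 family passed; Slc6a15, a neutral amino acid transporter, had a change of -0.42 (limma adjusted p = 0.0588), with no overlap between the groups. It passed when dehydrated 5 was left out (adjusted p = 0.0437), when control 1 was left out with it (0.0466), among the brightest 40% of probe sets (0.0430) and with probe sets averaged (0.0336). None of 12 genes of glutamine and neutral amino acid transport passed, the smallest p being that of Slc7a8 (-0.54, adjusted p = 0.153, 0.00758 without dehydrated 5, and 0.0136 without dehydrated 5 and control 1 together). The amino acid response, which also acts on Slc38a2, had 14 tested genes, of which 2 rose and none fell while the median log2 change was -0.18. Among all genes 2.31% were called higher. Trib3, a pseudokinase, averaged 58.8 ± 10.3 in controls and 95.8 ± 18.5 after dehydration (SD, n = 5; log2 change 0.65 ± 0.15 SE, adjusted p = 0.0308). Asns, asparagine synthetase, averaged 285 ± 25.3 in controls and 354 ± 21.9 after dehydration (SD, n = 5; 0.31 ± 0.08 SE, adjusted p = 0.0471). Neither gene passed after adjusting for the transcript-end ratio or when dehydrated 1, 2 or 3 or control 4 or 5 was left out, and Asns also missed when dehydrated 4 or control 2 or 3 was left out (adjusted p as high as 0.105 for Trib3 and 0.146 for Asns). Both calls also ended without the filter (limma adjusted p = 0.0661 for Trib3 and 0.0647 for Asns) and without an intensity trend (0.0663 and 0.115). That of Asns ended with quantile normalization too (0.0523). Atf4 itself had a change of -0.46 (adjusted p = 0.0838).

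**Figure D5:**
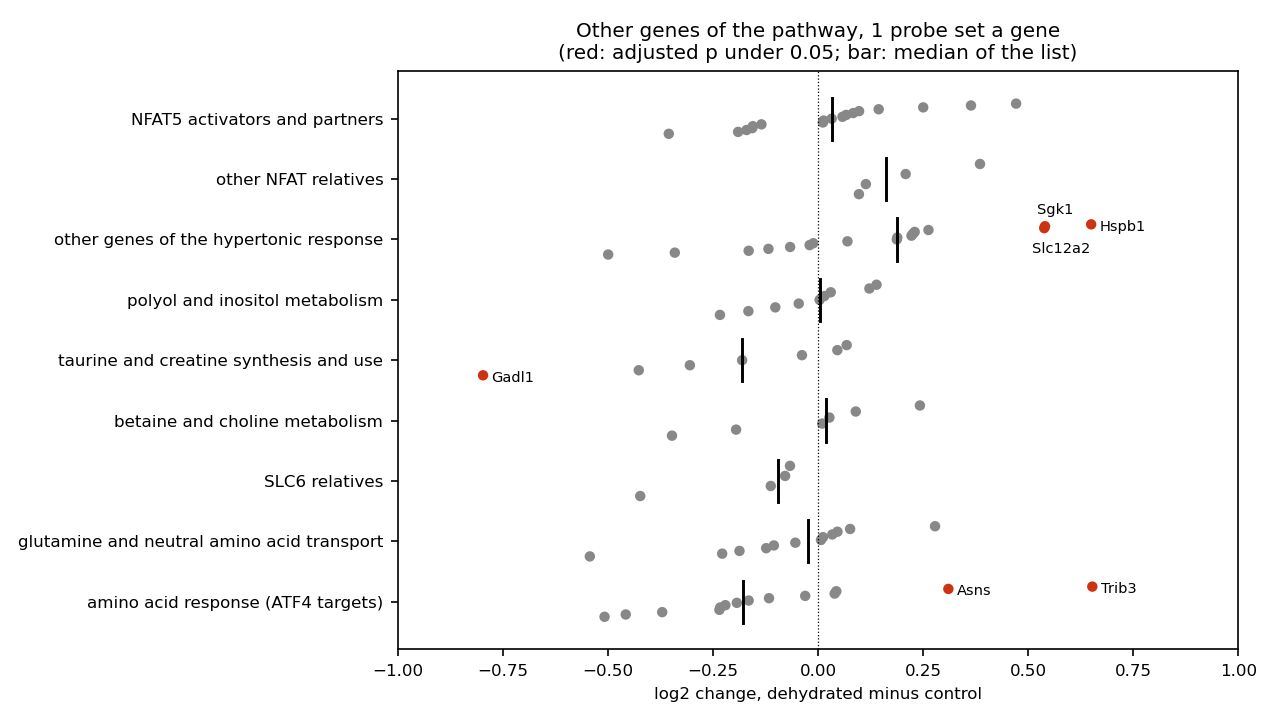
Log2 change, dehydrated minus control, of each tested gene in the 9 pathway lists (1 point a gene, 1 probe set a gene; red for adjusted p under 0.05; black bar for the median of the list). Hspb1, Slc12a2, Sgk1, Trib3 and Asns rose and Gadl1 fell; all other points are grey.

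Cell type markers differed between the groups for some lists, and their part in the changes above was not tested. The counts of called genes below stand beside 2.31% called higher and 0.878% called lower among all 10593 tested genes. Summed marker signal without overlap was higher in the dehydrated group for 10 endothelial and pericyte genes (1563 to 1931 against 1059 to 1370; 4 rose, none fell) and for 12 fibroblast and meningeal genes (13895 to 15938 against 10445 to 11763; 4 rose, none fell). For 14 pituicyte and astroglia genes it was 10663 to 11702 against 9878 to 10803 (3 rose, none fell), and for 6 melanotroph genes 5681 to 7180 against 6641 to 7070 (1 fell, none rose). For 6 hypothalamic neuropeptide transcripts it was 5956 to 7019 against 3942 to 4506 (2 rose, none fell), and for 2 oligodendrocyte and Schwann cell genes 898.7 to 942.2 against 640.1 to 787.5 (1 rose, none fell). For 9 macrophage and microglia genes it was 1687 to 2399 against 1846 to 2340 (1 rose, none fell), for 2 blood cell genes 2797 to 3536 against 2360 to 3018 (none passed), and of the 6 anterior lobe genes 1 fell and none rose. Summed signal is weighted towards the brightest genes. The mean log2 difference was -0.25 over the 6 melanotroph genes and 0.21 over the 14 pituicyte and astroglia genes (exact two-sided permutation p = 0.00794 and 0.0159, not adjusted over lists). The median log2 changes of these lists were smaller, -0.089 and 0.095. Pcsk2 (-0.88) and Oacyl (-0.54) had the largest changes of the melanotroph list, and Gfap (2.38) that of the pituicyte list. Changes were positive for 1 of the 6 melanotroph genes and 9 of the 14 pituicyte and astroglia genes. Endothelial, fibroblast and neuropeptide lists had 0.36, 0.30 and 0.51 (each exact permutation p = 0.00794). For the oligodendrocyte and Schwann cell list this difference was 0.20 (exact permutation p = 0.0556). Macrophage, anterior lobe and blood cell lists had 0.03, 0.21 and 0.006 (exact permutation p = 0.563, 0.476 and 0.992). Only markers kept by the filter were read, and the lowest mean signal among them was 31.5, for Pdgfrb. Markers without a kept probe set, among them Sox9, Pax7, Cdh5 and Itgam, were left out.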

How the data were processed

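The deposited values are linear intensities, 1 for each probe set of an array. Per the submitters' processing notes it came from GCOS 1.2; algorithm and scaling are not given in the sources used here. With 2% trimmed off both ends, each array had a mean near 100, so no further scaling was applied and changes are relative to the average probe set. The precision is limited by the number of arrays. Of 31099 probe sets, 57 controls were left out. Values were taken as log2(signal + 5), and the brightest 60% by mean over all arrays (18625) were tested with limma 3.58.1 in R 4.3.3 (lmFit, eBayes with an intensity trend, two-sided, Benjamini-Hochberg over all tested probe sets, call under 0.05). Fold changes are on the log2(signal + 5) scale, which understates the change of dim genes. Each gene of a list was read by the brightest of its kept probe sets. Single values, with 5 pairs in place of the 6 planned because Slc6a12 had no probe set, were compared by exact permutation in Python 3.11.15. Gene symbols are those of the platform annotation.

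The genes, lists and tests were chosen with earlier results of these data known. Named genes were all probe sets of the 7 genes, every called gene of a pathway list or else its smallest p, and the 5 genes most like Slc5a3; other list genes (Mapk14, Isyna1, Impa1, Csad, Hspa4l, Lrrc8a and Atf4) were named after their values were seen. The fit was checked on simulated data. Alternatives changed the pseudocount, filter, scaling, variance model, covariate and arrays. Replicate numbers are names in deposition order.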

Additional observations from a re-analysis of the deposited data

How the results depend on the processing

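The count of called probe sets, 458, was 240 without an intensity trend, 1398 without dehydrated 5 and control 1 together, and 218 to 1163 without 1 array. With dehydrated 5 and control 1 left out, the transcript-end ratio did not overlap between the groups. Of the 10 tested probe sets of the named genes, 1 was called; the number was 0 without the filter, without the trend or with the transcript-end ratio as a covariate, 2 among the brightest 40% or without dehydrated 5 and control 1 together, and 0 to 2 without 1 array. The log2 change of Slc5a3 1392349_at lost its call without the filter or the trend (0.63 in both) and with the ratio (0.55), and was 0.53 to 0.75 without 1 array. That of Slc6a6 1368778_at gained a call among the brightest 40% (-0.46) and without dehydrated 5 and control 1 (-0.59), and was -0.53 to -0.38 without 1 array. Mrps6 lost its call without the trend (0.50).

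Some uncalled changes turned direction. As reported, several were near 0, while Slc6a8 1367810_at was -0.14, Riok3 0.14 and Tmem263 0.10. With median centring they were 0.015 for Slc6a6 1374531_at and 0.019 and 0.014 for Akr1b1 1367734_at and 1396360_at, and the last was 0.019 with quantile and 0.018 with cyclic loess normalization. With the ratio they were 0.12 for Akr1b1 1367734_at and 0.093 for Slc6a8 1367810_at. With probe sets averaged, Nfat5 was -0.013, Slc6a8 0.015, Riok3 -0.20 and Tmem263 -0.15. Without dehydrated 5 and control 1, Slc6a6 1374531_at was 0.024 and Akr1b1 1396360_at 0.098. Without 1 array the ranges were -0.095 to 0.067 for Akr1b1 1367734_at, -0.14 to 0.088 for 1396360_at, -0.059 to 0.029 for Slc6a6 1374531_at and -0.30 to 0.017 for Slc6a8 1367810_at.

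The excess of Slc5a3 over Nfat5, Slc6a8 and Slc38a2 lost its call with quantile normalization (0.58, 0.45 and 0.52). With probe sets averaged it was 0.62 over Slc6a8, no longer passing, and 0.65 over Akr1b1, then passing. Without 1 array it was 0.47 to 0.69 over Nfat5, 0.47 to 0.79 over Akr1b1, 0.59 to 0.75 over Slc6a6, 0.35 to 0.58 over Slc6a8 and 0.41 to 0.64 over Slc38a2. The cause of these shifts was not tested. How far a probe set lay above background is not known. No paired analysis was possible because the labels give no pairing of arrays.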
